A study of Homo sapiens with 4 samples.

Results

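The TRIM antiviral ubiquitin ligases described here are 9 human genes, TRIM22, TRIM5, TRIM25, TRIM21, TRIM14, TRIM34, TRIM38, TRIM26 and TRIM56, of 25987 gene names with an annotated strand in the 2 deposited count tables. They were chosen by name, and every region carrying one of these names was kept and summed per gene and strand. The cells were NCI-H1944, a human lung adenocarcinoma line labelled wild type in all groups. The groups were MPS1i J2, DMSO J2, MPS1i Input and DMSO Input, with 1 library each. MPS1i cells received 100 nM BAY-1217389, an inhibitor of the mitotic checkpoint kinase MPS1, for 48 h, and DMSO cells received the solvent. Both were grown on without the agent for 24 h. Input is total RNA from 10% of the lysate, and J2 is the RNA that an antibody against double-stranded RNA pulled down from the remainder. As every group is a single library from 1 cell line, the values compare libraries and nothing below is tested against replicate spread.

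TRIM proteins are named for a tripartite motif of a RING domain, B-boxes and a coiled coil. The RING domain recruits a ubiquitin-loaded E2 enzyme, and the C-terminal domain picks the substrate, such as a viral capsid or a signalling protein. Many TRIM genes are induced by interferon. Their products act as restriction factors, as helpers of the RNA sensors RIG-I and MDA5, or as feedback brakes on the same pathway. TRIM14 lacks a RING domain and works as an adaptor, so the name ubiquitin ligase holds for it only by family.

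The J2 libraries held 6697479 counts (MPS1i) and 9793355 counts (DMSO), and the Input libraries 4844956 (MPS1i) and 6381610 (DMSO). Levels are given as CPM, the count per 1000000 counts of the library. Counts were made in stranded regions, and the same-strand regions of the 9 genes lie outside annotated exons but for 14 that share bases with one. These share 1 to 3 bases, except a TRIM56 region in J2 that shares 29. Of the 9 genes' same-strand reads, 95.9% (MPS1i J2), 97.0% (DMSO J2), 92.4% (MPS1i Input) and 94.2% (DMSO Input) lay in introns. The tables name each region for the nearest start site, so some regions lie in a neighbouring gene or between genes. Summed over 10 markers of lung epithelium, the level was 60.8 CPM (MPS1i J2), 66.7 CPM (DMSO J2), 123 CPM (MPS1i Input) and 118 CPM (DMSO Input), with NKX2-1 and SFTPB at 0 in both Input libraries and EPCAM and KRT19 at 0 in MPS1i Input. Summed over 8 fibroblast markers it was 14.8 CPM (MPS1i J2), 1.94 CPM (DMSO J2), 8.05 CPM (MPS1i Input) and 1.10 CPM (DMSO Input), and COL1A1 was at 0 in all 4 libraries. Summed over 7 leukocyte markers found in the tables it was 20.3 CPM (MPS1i J2), 3.57 CPM (DMSO J2), 16.3 CPM (MPS1i Input) and 4.23 CPM (DMSO Input). These non-epithelial sums were higher in the MPS1i libraries, as most TRIM genes were, and their part in the results was not tested. Fewer cells of a type and less RNA per cell cannot be told apart in such bulk samples.

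The promoters are shown because interferon can act on TRIM genes through them, which was not measured here. RefSeq promoter sequences, from 250 bases before to 50 after the start (GRCh38.p14), were at hand for 8 of the 9 genes, all but TRIM22, in 9 promoters. An ISRE-type motif (interferon-stimulated response element, searched as GAAANNGAAA on both strands, overlaps counted) stood in 5 of the 9, in TRIM5, TRIM21, TRIM14, TRIM34 and TRIM26, against 3.57% of 35116 promoters. The second TRIM34 promoter and those of TRIM25, TRIM38 and TRIM56 held no match to these letters. A GAS-type motif (gamma-interferon activation site, searched as TTCNNNGAA) stood in 0 of the 9, against 7.66% of all promoters. The 60-base windows around the matches, 5′ to 3′ on the gene's strand with the motif in capitals (TRIM21 and TRIM26 each hold 2 overlapping matches), read as follows.
TRIM5, chr11:5685068-5685127, minus strand: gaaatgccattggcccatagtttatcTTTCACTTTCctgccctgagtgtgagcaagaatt
TRIM21, chr11:4393653-4393712, minus strand: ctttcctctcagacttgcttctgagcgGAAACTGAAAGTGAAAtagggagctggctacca
TRIM14, chr9:98119215-98119274, minus strand: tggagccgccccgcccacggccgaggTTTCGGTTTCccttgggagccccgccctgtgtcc
TRIM34, chr11:5624885-5624944, plus strand: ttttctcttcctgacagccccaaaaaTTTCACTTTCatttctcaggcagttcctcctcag
TRIM26, chr6:30213564-30213623, minus strand: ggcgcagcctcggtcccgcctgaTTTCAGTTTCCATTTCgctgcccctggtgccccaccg
In TRIM21 the first match begins 17 bases past the start, in TRIM5 and TRIM14 it begins at -27 and -26, in TRIM34 at -90, and in TRIM26 at -194. A match is a description of the letters and not evidence of binding. In the J2 libraries described below, all 5 genes with these letters were called higher in MPS1i, where 21.2% of all genes were. Of these 5, TRIM21 (49 counts in MPS1i J2, 4 in DMSO J2) and TRIM34 (44 and 7) had enough counts for a call almost wholly through MPS1i. The J2 calls of TRIM21 and TRIM34 therefore add nothing to this count. TRIM25 and TRIM38 without these letters were also called higher, while TRIM56 without them was not called. In Input, TRIM5, TRIM21 and TRIM14 were called higher, as were TRIM25 and TRIM38 without the letters, where 17% of all genes were. TRIM26 was not called there and TRIM34 had too few counts. TRIM21 had enough Input counts through MPS1i alone (89 in MPS1i, 14 in DMSO), so its Input call adds nothing either. A link between motif and ratio was not tested.

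The first question was how RNA of the 9 genes differed between MPS1i and DMSO cells. A gene was called when its CPM differed by at least 2-fold, the exact 95% counting interval of the ratio excluded 1, and its counts in the compared libraries summed to at least 50. In the J2 libraries 8 of 9 genes were called higher in MPS1i and 0 lower, where the same rule called 21.2% of 13840 genes higher and 17.3% lower. The median log2 ratio was 1.84 for the 9 genes and -0.03 over all genes tested. In the Input libraries 6 of the 8 genes with enough counts were called higher and 0 lower, where the rule called 17% of 12456 genes higher and 13.5% lower. The Input median was 1.49 for the 8 genes and -0.05 over all genes. TRIM56 was called in neither, TRIM26 only in J2, and TRIM34 had too few Input counts. With at most 1 read counted per region, 1 gene stayed called higher in J2 (TRIM26) and 1 in Input (TRIM5). With reads taken by the annotated span and not by name, J2 had 5 genes called higher. TRIM21 (log2 ratio 3.90) and TRIM34 (2.98) then fell under the minimum of 50 counts, while TRIM26 (0.93) missed the 2-fold threshold. TRIM22 reached the minimum through its MPS1i counts alone in both tables, as did TRIM21 in Input (89 in MPS1i, 14 in DMSO). In J2, TRIM21 (49 in MPS1i, 4 in DMSO) and TRIM34 (44 in MPS1i, 7 in DMSO) reached it almost wholly through MPS1i counts. The calls of TRIM22 and TRIM21 in both tables and of TRIM34 in J2 therefore add nothing to these counts of genes. The J2 and Input medians of the members include the ratios of these genes, which lie above the medians and raise them.

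**Figure D1:**
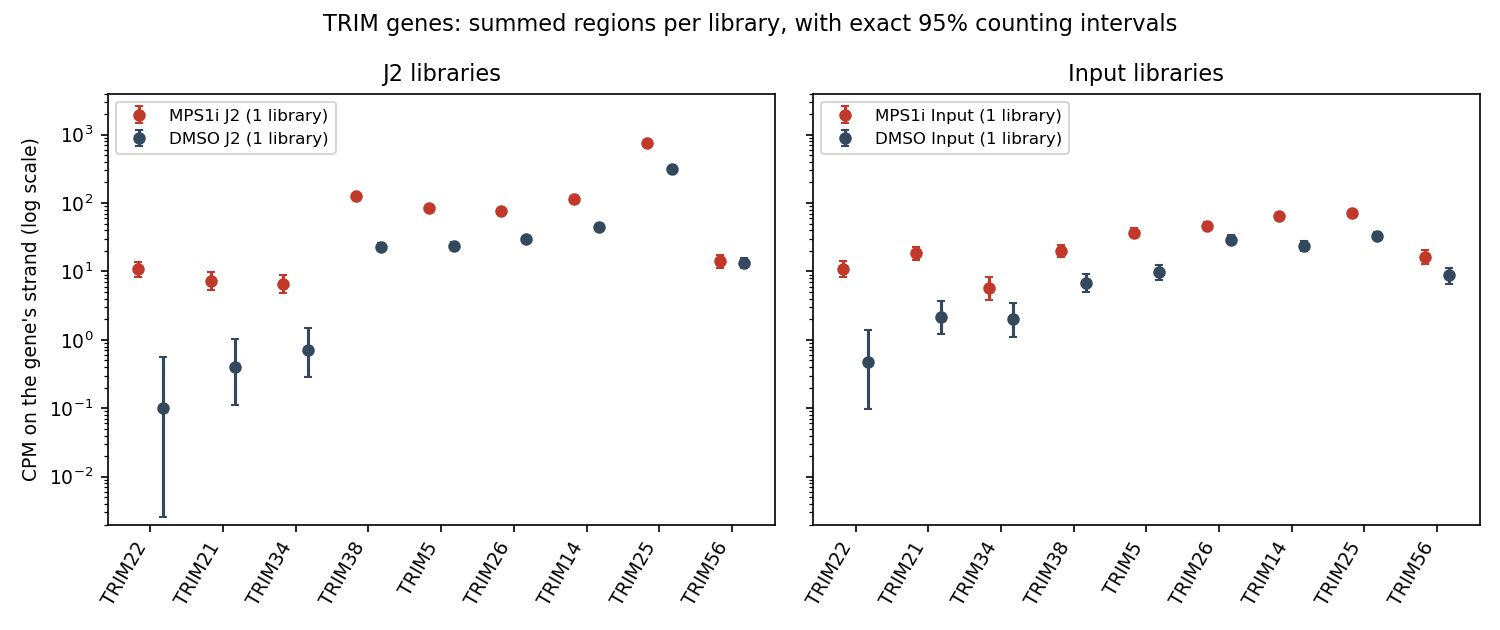
CPM on the gene's strand (log scale) for each TRIM gene in the 2 J2 libraries (left) and the 2 Input libraries (right), with MPS1i red and DMSO dark; bars are exact 95% counting intervals of the single library. TRIM22, TRIM21 and TRIM34 sit below 1 CPM in DMSO J2 and above 6 CPM in MPS1i J2, while the TRIM56 points lie close together in J2.

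TRIM22 and TRIM21 were the members with the largest ratios. TRIM22 (chr11:5689689-5737089, plus strand, GENCODE 29) is an interferon-inducible ligase known to restrict HIV and influenza A virus. It had 72 counts in MPS1i J2 and 1 in DMSO J2, and 53 in MPS1i Input and 3 in DMSO Input. The log2 ratio, computed with 0.5 added to each count, was 6.14 (95% counting interval 4.19 to 12.04) in J2 and 4.33 (2.91 to 6.86) in Input, so the 2 intervals overlap. TRIM22 was near the limit of detection in DMSO cells, and the size of its ratio is only loosely bounded. In the plane of the Input and J2 log2 ratios, the nearest of 11839 genes were FBXO39 at a distance of 0.39, HEPH at 0.57 and CMPK2 at 0.57, a likeness over 4 libraries only.

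TRIM21 (chr11:4384897-4393696, minus strand) is a cytosolic antibody receptor that marks antibody-coated virus for the proteasome, and is also the Ro52 autoantigen. It had 49 counts in MPS1i J2 and 4 in DMSO J2, and 89 in MPS1i Input and 14 in DMSO Input. Its log2 ratio was 4.01 (2.72 to 6.09) in J2 and 3.02 (2.24 to 3.99) in Input. Both comparisons put MPS1i above DMSO with intervals clear of 2-fold.

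TRIM5 and TRIM34 are neighbours on chromosome 11 and act on retroviral capsids, TRIM5 as the restriction factor and TRIM34 as a related protein that restricts some lentiviruses together with it. TRIM5 (chr11:5663557-5938619, minus strand) had 569 counts in MPS1i J2 and 232 in DMSO J2, and 179 in MPS1i Input and 62 in DMSO Input. That is a log2 ratio of 1.84 (1.62 to 2.07) in J2 and 1.92 (1.5 to 2.37) in Input. TRIM34 (chr11:5619764-5644398, plus strand) had 44 counts in MPS1i J2 and 7 in DMSO J2, a log2 ratio of 3.12 (2.04 to 4.60). Its Input counts, 28 in MPS1i and 13 in DMSO with a log2 ratio of 1.48 (0.51 to 2.58), stayed under the minimum. Of those Input counts, 0 in MPS1i and 4 in DMSO lay in the neighbouring TRIM6 and 0 in MPS1i and 6 in DMSO in the readthrough TRIM6-TRIM34, and TRIM34 itself had 27 in MPS1i and 2 in DMSO.

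TRIM25, TRIM14 and TRIM56 help the RNA and DNA sensing pathways. TRIM25 (chr17:56836387-56914080, minus strand) attaches ubiquitin to RIG-I and is a cofactor of the antiviral protein ZAP. By sums under the gene name it was the most abundant member in J2, with 5050 counts in MPS1i and 3081 in DMSO. By annotated span TRIM14 had more, with 9268 in MPS1i J2 and 4061 in DMSO J2 against 5226 and 3130 for TRIM25. Under its name TRIM25 had 349 counts in MPS1i Input and 209 in DMSO Input. Its log2 ratio was 1.26 (1.20 to 1.33) in J2 and 1.14 (0.89 to 1.39) in Input. The J2 call is lost with median-ratio scaling (0.98). The Input call is lost with TMM scaling (0.95), with median-ratio scaling (0.93), and without the regions that share a base with an exon (0.73), an alternative chosen after the data were seen.

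TRIM14 (chr9:98069275-98119212, minus strand) is a mitochondrial adaptor of MAVS that also protects cGAS from degradation with the help of USP14. It had 766 counts in MPS1i J2 and 445 in DMSO J2, and 312 in MPS1i Input and 152 in DMSO Input, for log2 ratios of 1.33 (1.16 to 1.5) and 1.43 (1.15 to 1.72). TRIM56 (chr7:101085439-101097967, plus strand) promotes signalling through STING and TLR3. It had 94 counts in MPS1i J2 and 132 in DMSO J2, a log2 ratio of 0.06 (-0.34 to 0.45). Its Input counts were 79 in MPS1i and 56 in DMSO, a log2 ratio of 0.89 (0.38 to 1.41), which missed the 2-fold threshold. TRIM56 was thus the member whose J2 interval excluded 2-fold in either direction.

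TRIM38 and TRIM26 are known as regulators that can dampen the response, TRIM38 by removing TAB2 and TAB3 and TRIM26 by removing nuclear IRF3. TRIM38 (chr6:25962802-25991226, plus strand) had 850 counts in MPS1i J2 and 226 in DMSO J2, and 98 in MPS1i Input and 44 in DMSO Input. Its log2 ratios were 2.46 (2.25 to 2.68) in J2 and 1.54 (1.03 to 2.10) in Input. TRIM26 (chr6:30184455-30213427, minus strand) had 506 counts in MPS1i J2 and 288 in DMSO J2, a log2 ratio of 1.36 (1.15 to 1.58). In Input it had 226 in MPS1i and 187 in DMSO, a log2 ratio of 0.67 (0.38 to 0.96). TRIM26's J2 call came partly from outside the gene. Within the annotated span it had 349 counts in MPS1i J2 and 268 in DMSO J2, a log2 ratio of 0.93 that misses the threshold. Regions between genes that carry its name held 117 in MPS1i J2 and 18 in DMSO J2, and those in the noncoding gene HCG17 held 40 in MPS1i J2 and 0 in DMSO J2.

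**Figure D2:**
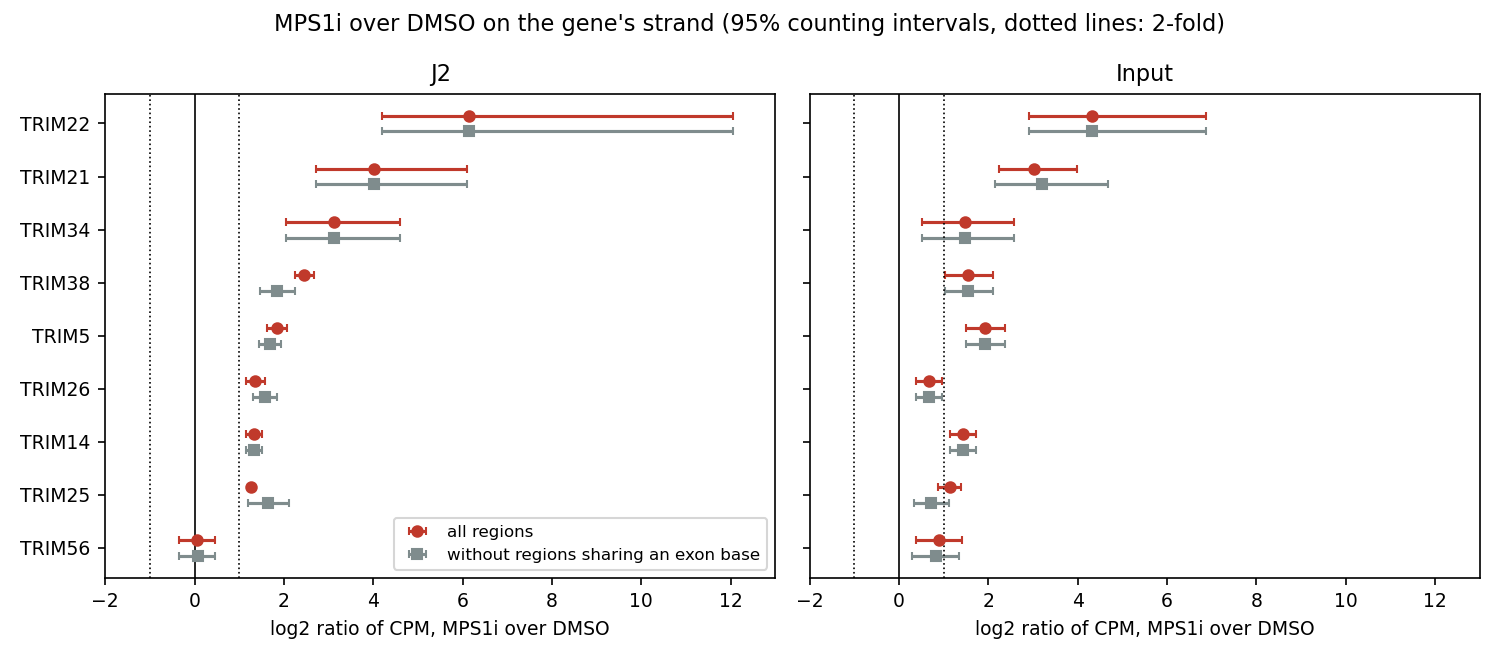
Log2 ratio of CPM, MPS1i over DMSO, in J2 (left) and Input (right) with 95% counting intervals, from all regions (red circles) and without regions that share a base with an exon (grey squares); dotted lines mark 2-fold. All red circles but that of TRIM56 in J2 lie right of 0.5, and in Input TRIM25 crosses the 2-fold line when those regions are left out.

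**Figure D3:**
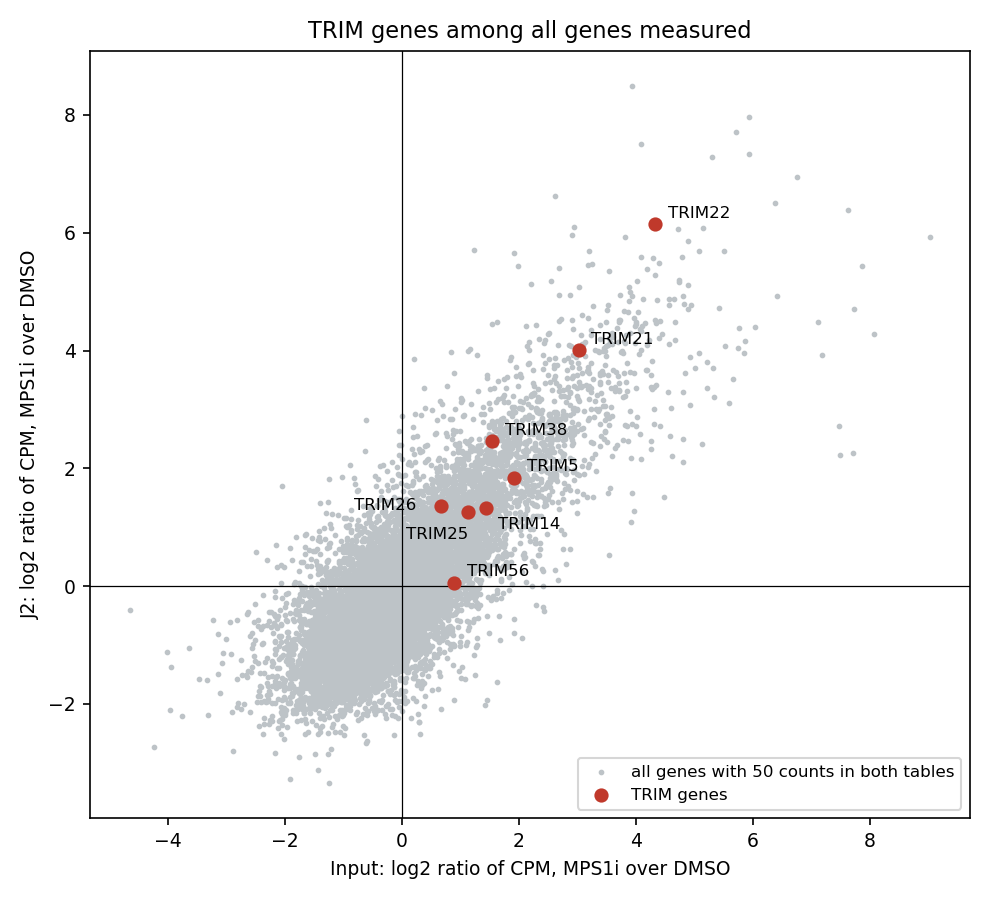
Each grey point is a gene with at least 50 counts in both tables, placed by its Input log2 ratio (x) and J2 log2 ratio (y), MPS1i over DMSO; red points are TRIM genes (TRIM34 is missing for its Input counts). TRIM22 at 4.33 and 6.14 and TRIM21 at 3.02 and 4.01 lie in the upper right part of the cloud, with other genes beyond TRIM21 on both axes. TRIM56 lies on the J2 zero line.

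Where the reads lay mattered for TRIM25 and TRIM38. Regions that share a base with an exon on the same strand held more reads on average than other regions. Outside the mitochondrial genome they averaged 103 reads in MPS1i J2 and 123 in DMSO J2, and 88.0 in MPS1i Input and 88.2 in DMSO Input. All other regions averaged 1.49 in MPS1i J2, 2.25 in DMSO J2, 1.40 in MPS1i Input and 1.82 in DMSO Input. Such regions were 0.248% of those in the J2 table and 0.313% of those in the Input table. Their counts varied widely among the TRIM genes, and several held few reads or none, such as chr17:56912757-56912759 in TRIM25 with 0 counts in MPS1i J2 and 1 in DMSO J2.

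For TRIM25 a single 240-base region at chr17:56904488-56904727, which shares 1 base with a TRIM25 exon, held 4769 counts in MPS1i J2 and 2970 in DMSO J2. That was 95.2% of the gene's J2 reads, with a log2 ratio of 1.23 (1.17 to 1.30). The Input region that lies inside it, chr17:56904577-56904722, stops short of the exon and had 6 counts in MPS1i Input and 1 in DMSO Input. Both tables hold a region of 3 bases at chr17:56913390-56913392, and it had 136 counts in MPS1i J2, 48 in DMSO J2, 223 in MPS1i Input and 110 in DMSO Input. Without exon-sharing regions TRIM25 kept 133 counts in MPS1i J2 and 62 in DMSO J2, a log2 ratio of 1.64, and 122 in MPS1i Input and 97 in DMSO Input.

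For TRIM38 the region chr6:25971727-25971869 held 654 counts in MPS1i J2 and 147 in DMSO J2, or 74.4% of its J2 reads, with a log2 ratio of 2.70 (2.44 to 2.97). Without it TRIM38 had 196 counts in MPS1i J2 and 79 in DMSO J2, and its log2 ratio was 1.85. In TRIM26 the region chr6:30200318-30201035 held 171 counts in MPS1i J2 and 124 in DMSO J2, and in TRIM5 the region chr11:5667393-5667689 held 127 in MPS1i J2 and 32 in DMSO J2. In TRIM21 the region chr11:4386257-4386446 held 37 counts in MPS1i Input and 7 in DMSO Input. Leaving out all such regions kept 8 of 9 genes called higher in J2 (21.5% of all genes under the same rule) and 5 of 8 in Input (17.1%). Among them, TRIM22 and TRIM21 in both tables and TRIM34 in J2 again reached the minimum wholly or almost wholly through MPS1i counts. Their calls add nothing to these counts of genes.

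**Figure D4:**
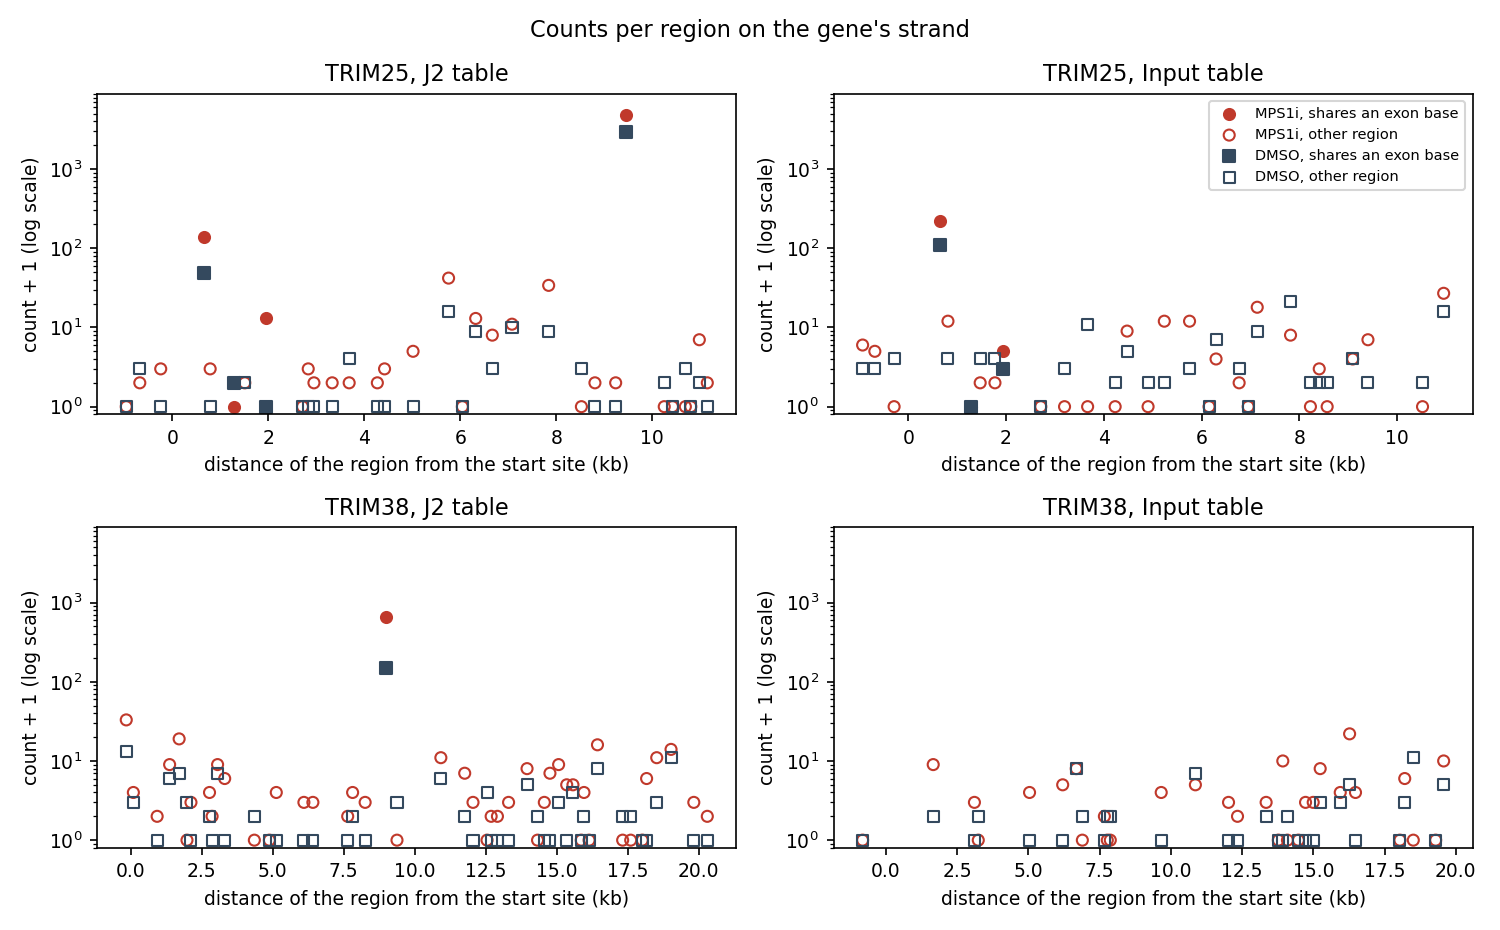
Counts plus 1 (log scale) in each same-strand region inside TRIM25 (top) and TRIM38 (bottom), by distance from the start site in kb, in the J2 table (left) and the Input table (right); filled symbols share a base with an exon, circles are MPS1i and squares DMSO. The filled J2 points near 9 kb stand far above all others in both genes and no filled Input point stands at that distance.

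Among single regions with at least 50 counts, 13 of 15 member regions were called higher in J2 and 3 of 3 in Input, against 11.3% of all measured same-strand regions in J2 and 16% in Input. Most of the J2 regions lay in TRIM14, TRIM5 and TRIM25, and regions of the same gene are not independent. Several, such as those named next, passed the minimum mainly through MPS1i counts. The count of regions is thus a description and adds nothing to the counts of genes. Clear of exons, the largest J2 ratios were in TRIM5 introns. The region chr11:5666391-5667127 had 45 counts in MPS1i J2 and 9 in DMSO J2 (log2 ratio 2.81, 1.82 to 4.09). The region chr11:5666105-5666357 beside it had 45 in MPS1i J2 and 11 in DMSO J2 (2.53, 1.61 to 3.68). In TRIM14 an intron 1 region carrying several Alu copies, chr9:98115108-98116292, had 46 in MPS1i J2 and 13 in DMSO J2 (2.33, 1.46 to 3.38). The first intron of TRIM14 also held its most-read Input region, chr9:98110387-98110770, with 83 counts in MPS1i Input and 16 in DMSO Input (2.74, 1.99 to 3.64). In J2 the most-read region at that place, chr9:98110266-98110841, had 173 in MPS1i and 125 in DMSO (1.02, 0.68 to 1.36).

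Repeat content set TRIM56 apart from the other members as a description. Regions carrying an Alu, the commonest short repeat of the human genome, held 85.8% of its J2 reads and 89.6% of its Input reads. For TRIM5 the share was 36.1% in J2 and 15.8% in Input, for TRIM14 31.6% and 12.7%, for TRIM38 2.60% and 2.82%, and for TRIM22 0% in both. The TRIM56 reads came mainly from intron 1 close to the start. There chr7:101085647-101086560 had 62 counts in MPS1i J2 and 61 in DMSO J2, and chr7:101085692-101086171 had 50 in MPS1i Input and 30 in DMSO Input.

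Double-stranded RNA can form between transcripts of opposite strands or within 1 transcript that holds inverted repeats. Reads on the strand opposite to each gene were therefore summed too. In J2, 6 of the 8 genes with enough opposite-strand counts were called higher in MPS1i and 0 lower, where 32.4% of 9386 genes were called higher and 7.73% lower. In Input it was 5 of 7 higher and 0 lower, against 24.7% higher and 8.85% lower of 8415 genes. Several of these genes reached the minimum mainly through MPS1i counts. Among them were TRIM22 in both tables, TRIM38 in J2, and TRIM5, TRIM25 and TRIM34 in Input. Their calls there add nothing to these counts of genes. The median log2 ratio was 1.86 in J2 and 1.48 in Input for the measured members, against 0.40 and 0.19 over all genes. The medians of the members include the ratios of the genes just named, so they carry the same limit.

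TRIM22 had 63 opposite-strand counts in MPS1i J2 and 6 in DMSO J2 (log2 ratio 3.84, 2.74 to 5.44), and 56 in MPS1i Input and 3 in DMSO Input (4.41, 3.0 to 6.94). The opposite-strand counts of TRIM22 were close to those on its own strand in each MPS1i library. TRIM34 had 201 in MPS1i J2 and 32 in DMSO J2 (3.18, 2.66 to 3.79), and 92 in MPS1i Input and 19 in DMSO Input (2.64, 1.95 to 3.47). For both genes the opposite strand is that of TRIM5, whose GENCODE span covers TRIM22 and whose longer RefSeq span covers TRIM34, so these reads cannot be told apart from long TRIM5 transcripts. On its own opposite strand, which is that of TRIM22 and TRIM34, TRIM5 had 63 counts in MPS1i J2 and 34 in DMSO J2, and 61 in MPS1i Input and 15 in DMSO Input.

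TRIM25 had 108 opposite-strand counts in MPS1i J2 and 33 in DMSO J2 (2.24, 1.68 to 2.87), TRIM14 had 365 in MPS1i J2 and 160 in DMSO J2 (1.74), and TRIM38 had 52 in MPS1i J2 and 19 in DMSO J2 (1.98). TRIM21 had 41 in MPS1i J2 and 2 in DMSO J2, and 44 in MPS1i Input and 0 in DMSO Input, all under the minimum of 50. TRIM26 went apart in the 2 tables, with 36 counts in MPS1i J2 and 43 in DMSO J2 (0.30, -0.39 to 0.96) but 113 in MPS1i Input and 64 in DMSO Input (1.21, 0.76 to 1.68). TRIM56 had 48 in MPS1i J2 and 86 in DMSO J2 (-0.29, -0.83 to 0.23), and 20 in MPS1i Input and 30 in DMSO Input. For some genes 1 very long region held nearly all J2 opposite-strand counts. For TRIM22, chr11:5689791-5714793 (25003 bases) held 100% of them, and for TRIM14 chr9:98083081-98110173 (27093 bases) held 96%. The share of the longest region was 95.9% for TRIM5 and 91.1% for TRIM26, but 48.2% for TRIM25, 30.2% for TRIM21, 26.8% for TRIM38, 24.0% for TRIM34 and 5.22% for TRIM56.

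**Figure D5:**
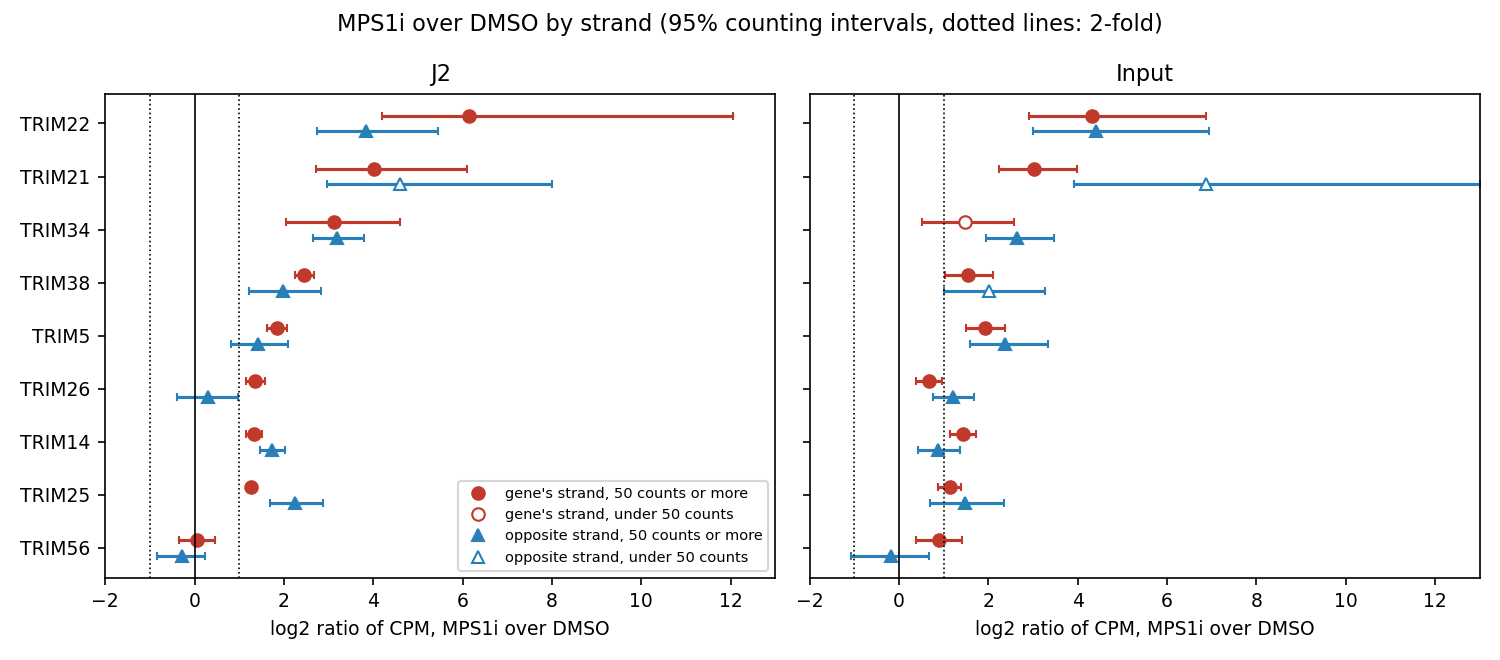
Log2 ratio of CPM, MPS1i over DMSO, on the gene's own strand (red circles) and on the opposite strand (blue triangles) in J2 (left) and Input (right), with 95% counting intervals; open symbols have under 50 counts and the TRIM21 opposite-strand Input interval runs past the axis. In both tables the strands of TRIM22 and TRIM38 have overlapping intervals, and both TRIM56 strands have J2 intervals that include 0.

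The name-based sums missed the bulk of the RNA on the TRIM14 strand. TRIM14 and NANS, which encodes a sialic acid synthase, point at each other and their ends meet, so regions there are named NANS. The region chr9:98081261-98084353 in the J2 table, on the TRIM14 strand and 1 base past the end of a TRIM14 exon and sharing a base with another, had 7895 counts in MPS1i J2 and 3341 in DMSO J2 (log2 ratio 1.79, 1.73 to 1.85). Its Input counterpart, chr9:98081306-98084353, had 3252 in MPS1i Input and 1168 in DMSO Input (1.87, 1.78 to 1.97). Each holds many times the counts that carry the name TRIM14. On the plus strand, where NANS lies, the regions overlapping it had 362 counts in MPS1i J2 and 163 in DMSO J2 (1.70, 1.43 to 1.98), and 113 in MPS1i Input and 58 in DMSO Input (1.35, 0.89 to 1.84). The regions on both strands had ratios above 2-fold in both tables. In J2, however, most plus-strand counts (351 in MPS1i, 153 in DMSO) lay in chr9:98083081-98110173. That region of 27093 bases runs far past the meeting point into TRIM14, so its reads cannot be placed there. They are also the reads given above as opposite to TRIM14. The meeting point was singled out after its values were seen.

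Reads past the ends of the genes were examined in the same way, also after values were seen, in the 10 kb beyond the RefSeq end on the gene's strand. For TRIM22 this window had 145 counts in MPS1i J2 and 7 in DMSO J2 (log2 ratio 4.83, 3.84 to 6.26), and 101 in MPS1i Input and 0 in DMSO Input. Against a floor of 3 counts in the DMSO Input library the Input ratio was 44.3-fold, with an interval that began at a log2 ratio of 5.15. These counts exceed those summed under the name TRIM22, some of which lie in the window, and GENCODE gives TRIM22 a longer end that covers it.

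For TRIM26 the window had 93 counts in MPS1i J2 and 5 in DMSO J2 (4.64, 3.49 to 6.42), and 56 in MPS1i Input and 1 in DMSO Input (5.63, 3.67 to 11.53). Within the gene its log2 ratios were 0.93 (0.70 to 1.16) in J2 and 0.51 (0.19 to 0.82) in Input, so the intervals past the end and within the gene do not overlap. The tables name those regions TRIM15, a gene of the other strand. The TRIM5 window had 27 counts in MPS1i J2 and 0 in DMSO J2, and 28 in MPS1i Input and 1 in DMSO Input. It follows the longer RefSeq span, is touched by another protein-coding gene on that strand, and its regions are named OR52B6. Its reads therefore cannot be assigned to TRIM5. The TRIM21 window had 44 in MPS1i J2 and 0 in DMSO J2, and 4 in MPS1i Input and 0 in DMSO Input. Against the same floor its J2 ratio was 21.4-fold, with an interval that began at a log2 ratio of 4.06. TRIM25 had 66 in MPS1i J2 and 31 in DMSO J2 (1.63, 1.00 to 2.30), and TRIM56 had 26 in MPS1i J2 and 53 in DMSO J2 (-0.47, -1.22 to 0.22). The windows of TRIM22 and TRIM26 reached 50 counts through the MPS1i library alone, so these values are a description and no count of called windows is given. The same rule called 24.3% higher and 8.62% lower of 4905 J2 windows of all protein-coding genes, and 22.3% higher and 8.04% lower of 3593 Input windows. Among windows free of other protein-coding genes on that strand the shares were 27.8% higher and 5.49% lower in J2 and 24.8% higher and 6.81% lower in Input.

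The next comparison was J2 over Input, the pull-down relative to total RNA. In MPS1i cells 3 of 9 genes were called higher in J2 (18.7% of 13499 genes) and 1 lower (8.41%), and in DMSO cells 3 of the 6 with enough counts were higher (21% of 12754 genes) and 0 lower (9.06%). TRIM25 had log2 ratios of 3.39 (3.23 to 3.55) in MPS1i and 3.26 (3.06 to 3.47) in DMSO. TRIM38 had 2.64 (2.35 to 2.97) in MPS1i and 1.73 (1.27 to 2.24) in DMSO, and TRIM5 had 1.20 (0.96 to 1.45) and 1.28 (0.88 to 1.71). TRIM21 was the gene called lower in J2 in MPS1i, at -1.32 (-1.86 to -0.81).

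These J2 over Input values rest on which regions each table holds. Without exon-sharing regions, 0 genes were called higher (16.5% of all genes) or lower (7.12%) in MPS1i. In DMSO TRIM5 was then called higher at 1.06 (19.6% of all genes) and TRIM25 lower at -1.26 (8.3%). In regions matched between the tables by 90% of their length, TRIM25 was lower in J2, at -1.08 in MPS1i and -1.80 in DMSO. Its matched counts were 148 in MPS1i J2, 49 in DMSO J2, 227 in MPS1i Input and 112 in DMSO Input. Of these, 136, 48, 223 and 110 lay in the 3-base exon-sharing region chr17:56913390-56913392, so this value describes that region. The direction for TRIM25 is therefore set by the choice of regions, and no enrichment or depletion in the pull-down can be read for it.

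The change of J2 over Input between MPS1i and DMSO was called higher for 1 of 9 genes (9.35% of 13496 genes were called higher) and lower for 0 (7.74%). That gene was TRIM34, at a log2 value of 1.64 (delta-method interval 0.19 to 3.10). Its value rests on 7 counts in DMSO J2 and on Input counts from TRIM6, and within its annotated span it was 0.71 and not called. Without exon-sharing regions TRIM34 was again the 1 gene called higher (9.36% of all genes) and 0 were lower (7.65%). TRIM38 had 0.91 (0.36 to 1.47), TRIM26 had 0.69 (0.34 to 1.04), TRIM22 had 1.81 (-0.99 to 4.62) and TRIM56 had -0.83 (-1.45 to -0.21). TRIM38, TRIM26, TRIM22 and TRIM56 did not meet the rule, and for TRIM22 the interval spans both directions. On the opposite strand, J2 over Input was called higher in MPS1i for TRIM14 (1.48) of 9 genes (16.1% of all genes) and lower for TRIM26 (-2.10, 14% of all genes). In DMSO 0 of 5 genes were higher (14.3%) and TRIM26 was lower (-1.19, 18.9%). The change on that strand was called for 0 of 8 genes in either direction (13.5% higher and 6.15% lower of all genes).

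Other genes of the system gave a mixed picture. Of other TRIM family genes, 7 of 33 measured were called higher and 5 lower in J2 (21.2% and 17.3% of all genes), and 5 of 30 higher and 3 lower in Input (17% and 13.5% of all genes). The shares called higher were thus near those of all genes, with median log2 ratios of -0.22 and -0.18. TRIM69, which binds microtubules and restricts some viruses, had 162 counts in MPS1i J2 and 33 in DMSO J2, and 97 in MPS1i Input and 11 in DMSO Input. TRIM55, a muscle ligase, had 83 in MPS1i J2 and 11 in DMSO J2, and 90 in MPS1i Input and 13 in DMSO Input. TRIM28, a corepressor of KRAB zinc fingers that silences endogenous retroviruses, was called lower in Input, with 15 counts in MPS1i and 88 in DMSO. In J2 it had only 4 in MPS1i and 6 in DMSO.

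Among interferon receptors and factors, 5 of 14 were called higher and 1 lower in J2 (21.2% and 17.3% of all genes), and 6 of 13 higher and 0 lower in Input (17% and 13.5% of all genes). IRF1, a factor that binds ISRE motifs, had a log2 ratio of 1.82 (1.54 to 2.12) in J2 and 2.22 (1.76 to 2.72) in Input. TYK2, a receptor kinase, was the gene called lower in J2, at -1.40 (-2.62 to -0.43).

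Of the E2 enzymes and E1 that serve TRIM ligases, 1 of 14 was called higher and 2 lower in J2, and 0 of 12 higher and 1 lower in Input, no more than the 21.2% and 17.3% (J2) and 17% and 13.5% (Input) of all genes. UBE2L6, the E2 of the ubiquitin-like ISG15, had 106 counts in MPS1i J2 and 25 in DMSO J2 (log2 ratio 2.61, 1.99 to 3.32). UBE2D2 was lower in both, at -1.22 in J2 and -1.10 in Input, and UBE2N, which builds K63 chains, was lower in J2 at -1.07. Of partners and substrates, 6 of 21 were called higher and 5 lower in J2, and 4 of 20 higher and 4 lower in Input, beside 21.2% and 17.3% (J2) and 17% and 13.5% (Input) of all genes. DDX58, which encodes RIG-I, the substrate of TRIM25, had a log2 ratio of 3.36 (3.18 to 3.55) in J2 and 3.57 (3.40 to 3.76) in Input. IFIH1, which encodes MDA5, had 3.22 in J2 and 2.72 in Input. CGAS, the DNA sensor that TRIM14 protects, was lower, at -1.81 (-2.04 to -1.59) in J2 and -1.50 (-1.94 to -1.10) in Input. MAVS, the adaptor that TRIM14 binds, was also lower, at -1.65 in J2 and -1.22 in Input.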

How the data were processed

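Per the file headers, the authors deposited whole-number counts of reads in stranded regions, not normalized, in an Input table and a J2 table with HOMER annotation and nearest gene. The submitters' processing notes name, with no version, STAR, featureCounts, HOMER and the trimmers Trim Galore, cutadapt and Trimmomatic, and the build GRCh38. The handling of multimapping reads and duplicates, and region calling, is not stated there. Libraries were made with a stranded total RNA kit, per the labels' protocols.

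Counts of all regions whose table name is the gene were summed on the gene's strand (GENCODE 29), and separately on the opposite strand, and divided by the library total (CPM). Ratios carry exact Clopper-Pearson 95% intervals, log2 values a pseudocount of 0.5 per library, and the change of J2 over Input a delta-method interval with minimums of 50 (J2 pair) and 20 counts (Input pair). All intervals and floors cover counting error only. With 1 library per group no test exists, and every gene of the tables went through the same rule to give the background percentages. Exon sharing was taken from GENCODE 29 exons on the same strand, counting both end bases. The code for ratios, intervals and calls was checked on simulated counts with known changes, and no value from them is given. Alternatives used edgeR 4.0.16 (TMM, upper quartile) and DESeq2 1.42.0 (median ratio) only for scaling factors, and bedtools 2.31.1. Of 17 alternatives, 2 were added after the data were seen. All 9 genes, their most-read and most changed regions, at most 3 called genes per direction and list, and the 3 genes nearest to TRIM22 may be named. The members and lists were chosen with earlier results of these data known. Reads of regions whose gene name has no annotated strand, 5.15% (MPS1i J2), 5.02% (DMSO J2), 24.1% (MPS1i Input) and 27.8% (DMSO Input), entered totals but no gene.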

Additional observations from a re-analysis of the deposited data

How the results depend on the processing

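Of the 10 counts of genes called, none moved by over 1.5 times with any of the 4 scaling alternatives, without regions between genes, or without regions over 5000 bp. TMM shifted the median log2 ratio of all genes by -0.26 in J2 and -0.18 in Input, and median-ratio factors by -0.28 and -0.20. With no count minimum, 2 genes were lower in J2 over Input in DMSO. With a minimum of 100, J2 had 5 genes higher in MPS1i and the change of J2 over Input 0. At 1.5-fold, J2 over Input had 5 genes higher in MPS1i and 5 in DMSO, and its change had 3 higher and 1 lower. On both strands together the change had 0 higher. With the annotated span in place of the name, J2 had 5 genes higher and the change 0. Thinned to the smallest library, J2 had 5 higher. A pseudocount of 5 left 0 for the change.

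With at most 1 read counted per region, 1 gene was higher in MPS1i in J2 and 1 in Input, J2 over Input had 0 higher and 0 lower in MPS1i and 0 higher in DMSO, and the change had 0. There J2 over Input turned to -0.47 (TRIM5), -0.89 (TRIM25) and -0.45 (TRIM38) in MPS1i and to -0.023 (TRIM5) and -0.65 (TRIM25) in DMSO. Without each gene's most-read region, J2 over Input had 1 higher and 0 lower in MPS1i and 1 higher in DMSO, its change had 1 lower, and TRIM25 turned to -0.45 in DMSO. In 159765 matched region pairs, J2 over Input had 0 higher in MPS1i, 0 higher and 1 lower in DMSO, and the change 0. There TRIM25 turned to -1.08 in MPS1i and -1.80 in DMSO, mostly on the reads of its 3-base exon-sharing region. TRIM21 came to 0.27 in MPS1i on only 2 counts in MPS1i J2 and 1 in MPS1i Input, too few to give a direction. Without exon-sharing regions, added after the data were seen, J2 over Input had 0 higher and 0 lower in MPS1i and 1 higher and 1 lower in DMSO, and TRIM25 turned to -0.34 in MPS1i and -1.26 in DMSO. A higher minimum or thinning leaves fewer genes with enough counts by construction, and for other settings the cause was not tested.

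No paired analysis was possible because each group holds 1 library and no result comes from a test. Depth limits TRIM22, TRIM21 and TRIM34, which had 7 or fewer counts in DMSO J2.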
